A study of Mus musculus with 2 samples.

Results

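The genes described here are 10 genes of endoplasmic reticulum (ER)-associated degradation, Herpud1, Edem1, Edem2, Sel1l, Syvn1, Derl1, Derl2, Derl3, Os9 and Vcp. They were set as a list with earlier results of these data known, were then found by their names on the array, and all 10 were found among the 18181 gene names with a coding mRNA there. They were measured in NIH3T3 cells, a mouse embryonic fibroblast line, either untreated (control) or treated with 10 µM thapsigargin for 3 h. Both groups were grown in medium with calf serum and received cycloheximide shortly before lysis to hold ribosomes on the mRNA. Thapsigargin blocks the calcium pump of the ER and so empties its calcium store, which disturbs protein folding there. RNA bound to polysomes (P) and RNA of the free plus monosome fraction (FM) were parted on a sucrose gradient and hybridised together. Each group was a single array of RNA pooled from 3 preparations, so differences between the groups carry no replicate error, and none was tested.

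ER-associated degradation removes proteins that fail to fold in the ER. Lectins and mannosidases of the lumen recognise the misfolded glycoprotein, a membrane complex around the ubiquitin ligase Hrd1 (encoded by Syvn1) moves it to the cytosol and ubiquitinates it, and the ATPase p97 (encoded by Vcp) pulls it out for the proteasome. Several of its genes are known targets of the unfolded protein response, the transcriptional programme set off by misfolded ER proteins, while the same stress lowers translation initiation through phosphorylation of eIF2α.

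Polysome association and abundance were followed for each mRNA, written here as log2 P/FM and A. The log2 P/FM value is the log2 ratio of the polysome signal to the free plus monosome signal, and 0 stands for equal signals in both. The A value averages the log2 signal over both fractions and stands for abundance. Differences are given as thapsigargin minus control. Of the coding mRNAs, 10033 had A above 4.5 on both arrays, and none of the 153 negative control spots of an array reached that level. In these mRNAs the median of log2 P/FM was 0.34 in control cells and -0.29 after treatment. Their median change was -0.71 in log2 P/FM and 0.37 in A. All 8 fibroblast markers looked for passed the filter, against 0 of 4 epithelial, 0 of 4 endothelial and 1 of 4 leukocyte markers (Cd3e).

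Of the 10 degradation genes 9 passed the filter, and Derl3 did not. Abundance was higher after thapsigargin in 8 of these 9, as it was in 76.8% of all mRNAs. With normexp background correction, here with an offset of 50 added to each signal, it was higher in 5 of 10. This stood beside 11.4% of all mRNAs, whose median change in A was then -1.48. Sel1l, Edem1 and Os9 turned to lower values under this correction. Without normexp, abundance was higher by 1 or more on the log2 scale in 4 of 9, Herpud1, Syvn1, Derl2 and Vcp, against 11.7% of all mRNAs. The median change in A was 0.91 in the 9 genes. In RNA from whole cultures, more RNA per cell and more cells carrying it cannot be told apart.

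Polysome association moved in both directions within the pathway. The median change in log2 P/FM of the 9 genes was -0.01, or 0.70 above the median of all mRNAs. Derl1, Edem2 and Os9 were lower by 0.8 or more, the size the study uses to call an mRNA sensitive to stress. These 3 of 9 stand beside 47.0% of all mRNAs. Sel1l was higher by 1 or more, 1 of 9 against 9.90% of all mRNAs. Vcp was at 0.8 or more on both arrays, which the study calls resistant, 1 of 9 against 3.00%. Its control value fell below 0.8 with processed signals (0.68), after loess (0.64) and by its brightest probe (0.72). By the mean over probes, none of the 9 was at or below 0 in control and higher by 1 or more, the inducible class that held 8.86% of all mRNAs. Of the 18 member probes above the filter, 2 met these limits, the bright probe of Syvn1 and 1 probe of Sel1l. They were also the only member probes higher by 1 or more, beside 12.6% of all probes.

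These shares depend on how the 2 arrays are scaled to each other. For labelling, the study kept P and FM RNA in the proportions recovered from the gradients. P was the larger part in control cells and FM after stress. Centring and loess bring both arrays to a common level and so take such a difference out. No sensitive gene was left among the 9 when each array was centred on its median, beside 28.3% of all mRNAs. None was left either with scaling to the spike-in probes, where only 0.638% of all mRNAs were sensitive. After loess 1 was left, beside 27.2%. With spike-in scaling the median change of all mRNAs was 1.84. Whether spike-in RNA was added in equal amounts to both fractions and both samples is not known here. Values on that scale therefore do not settle the direction of a change. Relative to the median of all mRNAs, 6 of 9 genes had the higher change (Herpud1, Edem1, Sel1l, Syvn1, Derl2 and Vcp), and this number was 3 of 10 under normexp background correction.

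**Figure D1:**
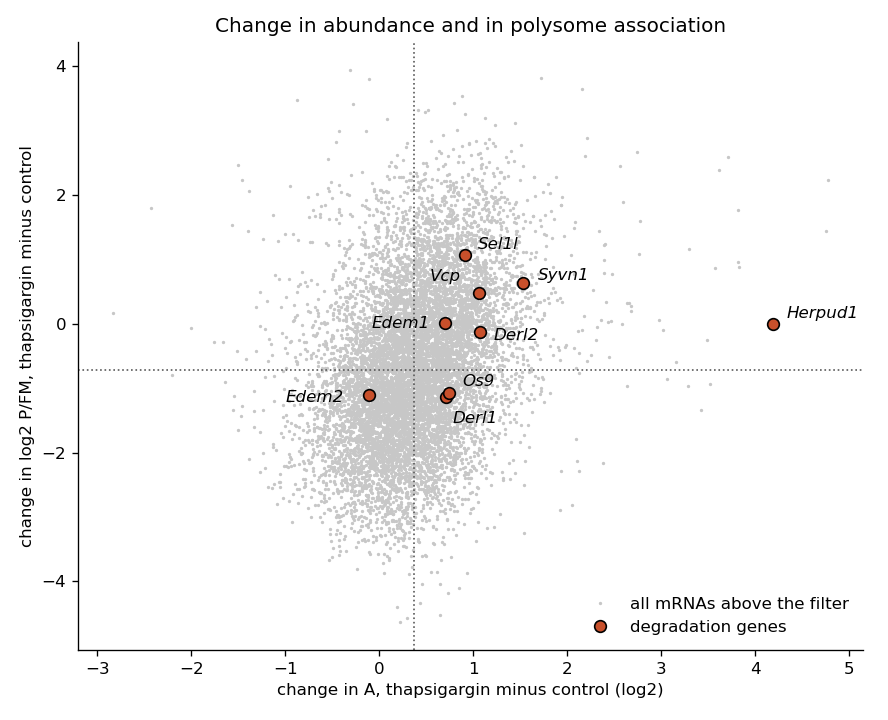
Change in log2 P/FM (vertical axis) against change in A (horizontal axis, log2), thapsigargin minus control, for 10033 mRNAs (grey points) and the 9 degradation genes above the filter (labelled points). Dotted lines mark the medians of all mRNAs, -0.71 and 0.37; Herpud1 lies far to the right at 4.19 in A, with log2 P/FM near 0, and Derl1, Os9 and Edem2 lie below the horizontal line.

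Herpud1 stood apart from the other members in abundance. It encodes a small ER membrane protein with a ubiquitin-like domain that serves the Hrd1 complex. Its single probe gave a P signal of 1019 in control and 18540.4 in treated cells, and an FM signal of 641 and 11750.2. Without normalization, both fractions were thus higher by nearly the same factor, 18.2-fold in P and 18.3-fold in FM. Its A value was 9.66 in control and 13.85 in treated cells, a difference of 4.19, and only 2 of the 10033 mRNAs had a larger one. Herpud1 had a log2 P/FM of 0.67 in control and of 0.66 after thapsigargin. This change of -0.01 lay above that of most mRNAs, since 2967 of the 10033 had a higher one. Its change in A ran from 3.80 to 4.48 over the alternative settings. Its change in log2 P/FM depended on the scaling, and was 0.59 after centring on array medians, 1.70 after loess, 1.75 with processed signals and 2.54 with spike-in scaling.

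The Herpud1 probe lies at chr8:96919117-96919176 on mm9, on the plus strand. The first 30 of its 60 bases are printed because every Herpud1 value rests on this probe.
Herpud1: tagcaggacttttctaggagagacttatgt

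Syvn1 was the member with the next largest change in abundance, except with normexp. There its change in A was 0.25, below Vcp (0.71) and Derl2 (0.50). Syvn1 encodes Hrd1, the ubiquitin ligase at the centre of the main degradation complex. Of its 2 probes, the one further 3′ gave a P signal of 1406 in control and 12909.8 in treated cells, and an FM signal of 1799 and 5870.3. Both fractions were higher after thapsigargin, P by 9.18-fold and FM by 3.26-fold. The log2 P/FM of this probe was -0.36 in control and 1.14 in treated cells, a difference of 1.49, which meets the limits of the inducible class. This difference was 3.17 after loess and 3.19 with processed signals. The other Syvn1 probe was not well above background in either fraction on either array. The mean over both, 0.63 in log2 P/FM and 1.53 in A, therefore mixes a measured value with one at background.

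The first 30 bases of the 2 Syvn1 probes are shown because they gave such unlike signals. Probe 1 (chr19:6047993-6048052, mm9, plus strand) was at background and probe 2 (chr19:6053568-6053627) was bright.
Syvn1 probe 1: tcatgcctactacctcaaacaccagttcta
Syvn1 probe 2: caaggcctagctgctgcttccttcttttgg

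The promoters of the members were searched for motifs known from the unfolded protein response. The ER stress response element (ERSE) is CCAAT, 9 bases of any kind and CCACG, and ERSE-II is ATTGG, any base and CCACG. Both hold the shorter CCACG, which was also searched alone, together with TGACGTG, the core of a further element of this response. Windows of 300 bases, 250 before and 50 after the start, came from RefSeq on GRCm38.p6, and both strands were read. They were held for 9 of the 10 members, and Derl1 had no entry. ERSE was found in 2 members, Syvn1 and Derl3, and in 0.119% of all 32851 windows. Herpud1 had ERSE-II, found in 0.0365% of windows, and Vcp had TGACGTG, found in 2.01%. CCACG was in a window of all 9, against 32.8% of windows.

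The 250 bases before the start are printed for the 3 genes with ERSE or ERSE-II, with that match in capitals. The match begins 52 bases before the start in Herpud1 (chr8:94386179-94386428, GRCm38.p6, plus strand), 44 before it in Syvn1 (chr19:6046326-6046575, plus strand) and 156 before it in Derl3 (chr10:75893148-75893397, plus strand), where it is on the opposite strand.
Herpud1 promoter: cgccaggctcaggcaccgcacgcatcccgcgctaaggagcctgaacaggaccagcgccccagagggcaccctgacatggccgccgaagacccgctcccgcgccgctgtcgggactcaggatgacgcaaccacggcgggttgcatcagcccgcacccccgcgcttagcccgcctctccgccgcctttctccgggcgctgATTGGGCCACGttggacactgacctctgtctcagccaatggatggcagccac
Syvn1 promoter: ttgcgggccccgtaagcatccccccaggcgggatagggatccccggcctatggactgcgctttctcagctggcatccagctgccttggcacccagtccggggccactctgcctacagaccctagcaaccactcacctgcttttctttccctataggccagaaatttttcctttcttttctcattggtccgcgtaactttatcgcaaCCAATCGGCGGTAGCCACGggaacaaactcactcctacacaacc
Derl3 promoter: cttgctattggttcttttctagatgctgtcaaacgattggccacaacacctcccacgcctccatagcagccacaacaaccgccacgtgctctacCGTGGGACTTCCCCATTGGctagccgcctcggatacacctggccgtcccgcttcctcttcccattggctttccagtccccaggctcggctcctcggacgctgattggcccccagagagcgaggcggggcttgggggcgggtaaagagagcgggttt
Herpud1 and Syvn1 were the pair with the largest changes in A, except with normexp, while Derl3 was not measurable in these cells. A link between these motifs and abundance was not tested. A match of letters is not a measured binding site.

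**Figure D2:**
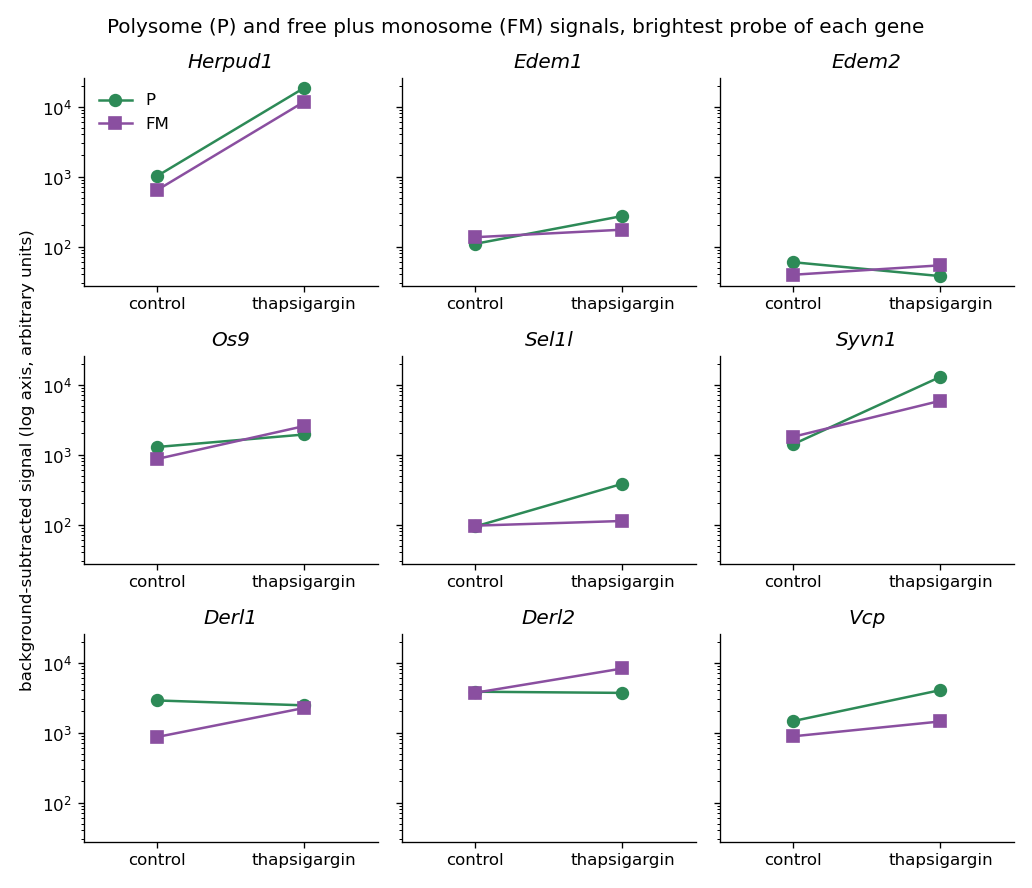
Background-subtracted signal (log axis, arbitrary units) of the polysome fraction P (circles) and the free plus monosome fraction FM (squares) in control and thapsigargin, for the brightest probe of each of 9 genes, 1 array per group. Both signals of Herpud1 are higher after thapsigargin by nearly the same factor, and the P signal of Syvn1, Sel1l and Edem1 moves above FM. In Derl2 and Derl1 the FM signal is higher with little change in P.

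Without normalization, Sel1l had the highest change in log2 P/FM of the 9 genes by the mean over probes. The bright Syvn1 probe alone, at 1.49, was above this mean. After loess Herpud1 (1.70), Syvn1 (1.68) and Vcp (1.58) stood above Sel1l (1.17). With processed signals these genes also did, with Sel1l at 0.97. Sel1l holds Hrd1 together with the lumenal lectins. Its probe 1 gave a P signal of 93.8 in control and 382 in treated cells, and an FM signal of 96.4 and 112. Its probe 2 gave P signals of 86.0 and 155, and FM signals of 48.5 and 70.2. The treated P signal was thus the higher one on both probes, and the FM signals moved less. Log2 P/FM differed by 1.80 on probe 1 and by 0.31 on probe 2, and by 1.06 ± 1.05 on average (SD over 2 probes). With -0.04 in control, probe 1 alone met the limits of the inducible class. In abundance Sel1l was higher by 0.91. A further Sel1l probe, designed to another transcript record, was at background.

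Vcp, the hexameric ATPase that extracts ubiquitinated proteins, had a high log2 P/FM on both arrays. Probe 1 gave 1.88 in control and 2.08 in treated cells, and probe 2 gave 0.72 and 1.49. The mean was 1.30 ± 0.82 in control and 1.78 ± 0.42 after thapsigargin (SD over 2 probes), a level at or above that of 99.3% of mRNAs in treated cells. P signals were 1124 and 2478 on probe 1 and 1461 and 4043 on probe 2, so the polysome signal was higher by 2.21-fold and 2.77-fold. A was higher by 1.07, and both probes gave nearly that value (SD 0.03). The mean change in log2 P/FM was 0.48, and it was 1.54 with processed signals and 1.58 after loess.

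The derlins are membrane proteins related to rhomboid proteases and are thought to help move proteins across the ER membrane. Derl1 was covered by 4 probes, numbered here from the 5′ to the 3′ end of the gene. Probes 1 to 3 had a log2 P/FM of 1.36, 1.56 and 1.73 in control and of -0.12, -0.39 and 0.12 in treated cells. Probe 4 had 0.32 in control and 0.83 in treated cells. The first 3 were lower after thapsigargin by 1.49, 1.94 and 1.61, and probe 4 was higher by 0.51. The gene's mean change, -1.13 ± 1.11 (SD over 4 probes), thus covers probes that moved apart. This mean was -0.23 after loess and -0.29 with processed signals, which does not reach the sensitive limit. The abundance of Derl1 was higher on every probe, by 0.35 to 1.1.

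Derl2 also had 2 probes that moved apart. Probe 1 was the bright one, with a P signal of 3835 in control and 3688 in treated cells and an FM signal of 3704 and 8235. Probe 2, 2409 bases further along the gene, gave P signals of 104 and 434 and FM signals of 260.1 and 563. The FM signal was higher on both, by 2.22-fold and 2.17-fold, but the P signal was 0.962 times its control level on probe 1 and 4.18 times on probe 2. Log2 P/FM changed by -1.21 on probe 1 and by 0.95 on probe 2. With loess both probes were higher, by 0.38 and 1.38, and so they were with processed signals, by 0.35 and 1.40. By its brightest probe Derl2 would count as sensitive, and by the mean over both, -0.13 ± 1.53 (SD over 2 probes), it does not.

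Derl3 had a single probe, and it was not well above background in either fraction on either array. Its signals were 11.0 (P) and 16.4 (FM) in control and 6.0 and 15.7 in treated cells, and its A values, 3.75 and 3.28, were under the filter. No change is therefore given for it.

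The lumenal members recognise mannose-trimmed glycoproteins. Edem1, a mannosidase-like protein, had 3 probes with log2 P/FM of 0.69, -0.64 and -0.31 in control and -1.06, 0.18 and 0.65 in treated cells. Probe 1 was lower by 1.75 and probes 2 and 3 were higher by 0.82 and 0.96. Their mean change was 0.01 ± 1.52 (SD over 3 probes), with A higher by 0.70 ± 0.23. The P signal on probe 1 was 160 in control and 117 in treated cells, and on probe 3 it was 109 and 273.

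Edem2, which starts the trimming of mannose, was faint. Its probe above background gave P signals of 59.7 in control and 37.8 in treated cells and FM signals of 39.5 and 53.9. Its log2 P/FM of 0.59 in control stood against -0.51 in treated cells, a difference of -1.11. It was the only one of the 9 genes whose A value was lower after thapsigargin, with a difference of -0.11. A further Edem2 probe on another transcript record was at background.

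Os9, the lectin that passes trimmed substrates to the Hrd1 complex, was lower in log2 P/FM on both its probes. Probe 1 gave 0.95 in control and -0.24 in treated cells, and the brighter probe 2 gave 0.57 and -0.40. The mean change was -1.08 ± 0.15 (SD over 2 probes). Each probe turned under an alternative, probe 2 to 0.24 with processed signals and 0.25 after loess, and probe 1 to 0.25 with normexp. On probe 2 the P signal was 1283 in control and 1936 in treated cells, and the FM signal was 865 and 2554. Both fractions were therefore higher, FM more than P, and A was higher by 0.74. A further probe named Os9 but placed on the opposite strand was at background.

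**Figure D3:**
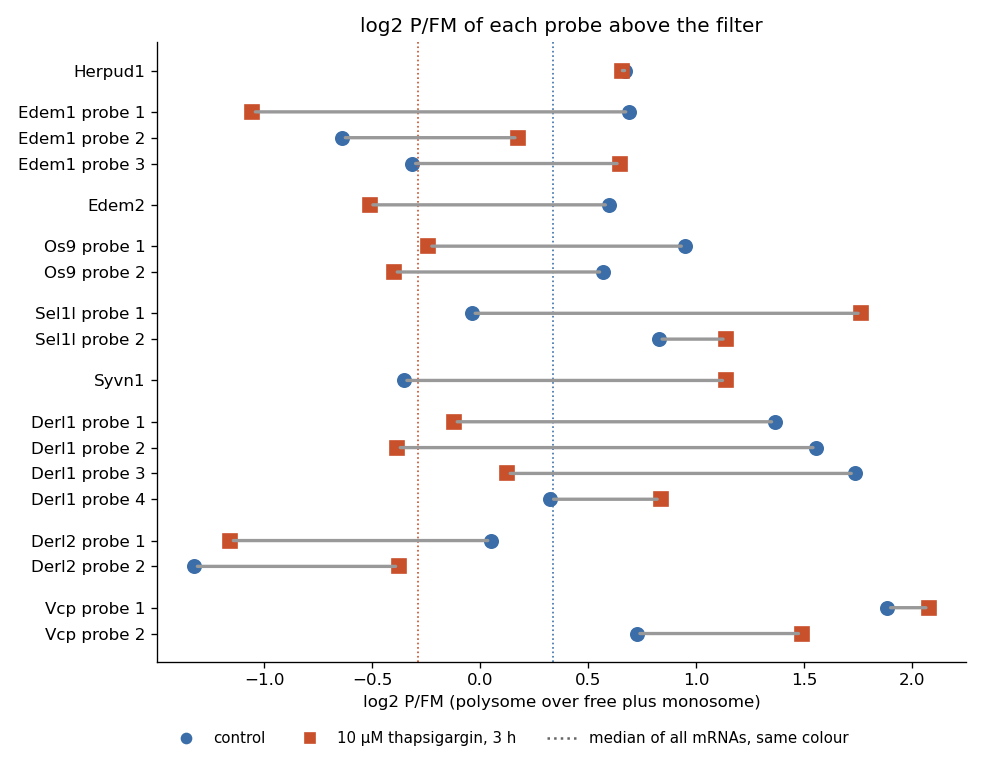
The log2 P/FM value of each of the 18 probes above the filter, in control (circles) and after thapsigargin (squares), with lines joining both values of a probe; probes are numbered from the 5′ to the 3′ end of the gene and each symbol is 1 array. The squares lie to the right of the circles on both Sel1l and both Vcp probes and to the left on both Os9 probes, while probes of Derl1, Derl2 and Edem1 move in both directions, in values without normalization; dotted lines mark the medians of all mRNAs, 0.34 in control and -0.29 after thapsigargin.

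Probes of one gene did not always move together. Of the 6 members with 2 or more probes above the filter, 3 (Derl1, Derl2 and Edem1) had probes that changed in opposite directions, against 20.2% of 3438 mRNAs with as many probes. Which genes these were depended on the scaling. With processed signals or loess they were Derl1, Edem1 and Os9, with normexp these and Derl2, and with spike-in scaling none of the 6. The median distance between the highest and lowest change within a gene was 1.82 in the 6 members and 0.49 in all such mRNAs. In 5 of the 6 members the probe nearest the 3′ end had the higher change, against 65.7% of 3431 mRNAs. Sel1l was the exception. The fainter probe had the higher change in 2 of the 6 members and in 52.6% of mRNAs.

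The size of this difference, last probe minus first, was 2.0 in Derl1, 2.16 in Derl2, 2.71 in Edem1, 0.57 in Vcp, 0.22 in Os9 and -1.49 in Sel1l. With other background corrections and scalings, added after the data were seen, it was 1.69 to 2.0 in Derl1, 1.00 to 2.16 in Derl2 and 1.65 to 2.83 in Edem1. It kept its sign in Vcp and Sel1l as well, but ran from -1.02 to 1.52 in Os9. The cause of the differences between probes was not tested.

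**Figure D4:**
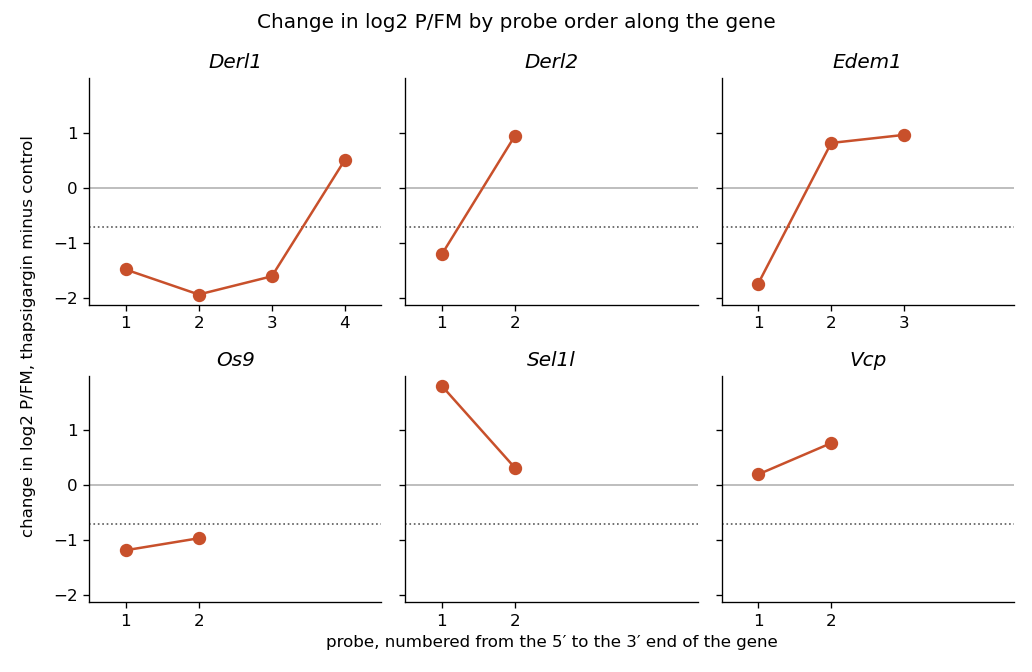
Change in log2 P/FM, thapsigargin minus control (vertical axis), of each probe in the 6 genes with 2 or more probes above the filter, ordered from the 5′ to the 3′ end of the gene (horizontal axis, order only, not distance). The dotted line is the median of all mRNAs, -0.71; in Derl1, Derl2 and Edem1 the last probe lies above 0 and the first below it, in values without normalization (both Derl2 probes lie above 0 after loess or with processed signals, and all probes with spike-in scaling).

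The first 30 bases of the probes that disagreed are given for these 3 genes, with their mm9 places. Probes of Derl1 and Derl2 are on the minus strand and those of Edem1 on the plus strand. Derl1 probe 1 covers 984 bases of the genome with its 60 bases and so crosses an intron; the others are unbroken.
Derl1 probe 1, chr15:57710607-57711590, change -1.49: ttattcatgcttctctttaactggatctgc
Derl1 probe 2, chr15:57703097-57703156, change -1.94: gtgttcctcaagtttcatgattctcattca
Derl1 probe 3, chr15:57702221-57702280, change -1.61: tagaggcacatctgaatgagtcactcataa
Derl1 probe 4, chr15:57701488-57701547, change 0.51: ggacctgattaggaagctgataactttatt
Derl2 probe 1, chr11:70823456-70823515, change -1.21: ctcctcctctttgatagacaaggccgtggt
Derl2 probe 2, chr11:70821047-70821106, change 0.95: tactgttcttagctgctacatgtatgttag
Edem1 probe 1, chr6:108804262-108804321, change -1.75: acacaaatctggaaccagatacatgtttac
Edem1 probe 2, chr6:108806892-108806951, change 0.82: cttccctctacactgttaatagacacttga
Edem1 probe 3, chr6:108808920-108808979, change 0.96: tatcctaaagctatcaagtacctgtgaaac

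Counted by probe rather than by gene, 18 of 20 probes on coding records of the members passed the filter. Of these, 8 were lower in log2 P/FM by 0.8 or more, beside 45.2% of 14657 probes. A further 2, the bright Syvn1 probe and Sel1l probe 1, were higher by 1 or more, beside 12.6% of probes.

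The order of the members by log2 P/FM changed between the arrays. By the mean over probes, without normalization, it ran in control from Vcp (1.30) and Derl1 (1.24) through Os9 (0.76), Herpud1 (0.67), Edem2 (0.59) and Sel1l (0.39) to Edem1 (-0.09), Syvn1 (-0.45) and Derl2 (-0.64). Against the median SD between probes of one mRNA in control, 0.29, only the steps from Derl1 to Os9, from Sel1l to Edem1 and from Edem1 to Syvn1 were larger. Each of these steps was smaller than the own SD over probes of its first gene, 0.63 in Derl1, 0.61 in Sel1l and 0.69 in Edem1. After thapsigargin it began with Vcp (1.78), Sel1l (1.45) and Herpud1 (0.66), whose 2 steps exceeded the corresponding median SD of 0.28. The step from Vcp to Sel1l, 0.33, was below the own SD of either gene, 0.42 and 0.44, and Herpud1 had a single probe. Syvn1 followed at 0.18, but its bright probe alone, at 1.14, would stand above Herpud1. From Syvn1 through Derl1 (0.11), Edem1 (-0.08), Os9 (-0.32) and Edem2 (-0.51) to Derl2 (-0.77), no neighbouring pair differed by more than the median SD of 0.28. The order changed with the setting. In control Edem2 (1.08) and Derl1 (0.76) stood above Vcp (0.68) with processed signals, and by the brightest probe after thapsigargin Sel1l (1.76) stood above Vcp (1.49).

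A wider list of 52 genes of the same pathway, without the 10 members, had 49 genes above the filter. Of these, 27 were lower in log2 P/FM by 0.8 or more (55.1%, beside 47.0% of all mRNAs) and 4 were higher by 1 or more (8.16%, beside 9.90%). Their median change was -1.12 in log2 P/FM and 0.44 in A, and 7 were higher in A by 1 or more (14.3%, beside 11.7%). These shares were near those of all mRNAs. The members' median of -0.01 in log2 P/FM was higher than this, but with 1 array per group the difference was not tested.

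By step of the pathway, the medians differed by less than single genes did within a step, and the steps were not compared by a test. Genes of recognition in the lumen had a median change of -0.53 in log2 P/FM (8 genes above the filter), membrane ligases and adaptors -0.96 (14 genes), ubiquitin-conjugating E2 enzymes -1.30 (5 genes), Vcp cofactors -0.50 (14 genes) and factors acting after extraction -1.23 (8 genes). Single genes spanned -2.28 to 1.37 in the first of these steps and -2.90 to 2.80 among the Vcp cofactors. Among genes with every signal well above background, the highest changes were those of Ube4a, a ubiquitin chain elongation factor (-1.24 in control and 1.55 in treated cells), Edem3, a relative of Edem1 (-0.49 and 0.80), and Ubqln2, a shuttle to the proteasome (-0.25 and 0.63). Among the lowest were those of the chaperone-linked ligase Stub1 (1.12 and -1.91) and the Vcp cofactor Ubxn1 (1.48 and -1.41). In abundance, among the same genes, Sdf2l1, Herpud2 and Rad23b had the highest changes, 2.13, 1.39 and 1.16. All 3 were lower in log2 P/FM, as were 73.5% of the 49 genes and 70.7% of all mRNAs. Some genes with a signal not well above background also had high changes in A. Of these, Dnajb9 (2.39) and Uggt1 (1.29) were higher in log2 P/FM, by 0.78 and 1.37, and Ngly1 (1.59) was lower by 1.18. Herpud2, the paralog of Herpud1, was lower by 1.53 in log2 P/FM.

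Genes on both sides of the pathway were read for comparison. All 31 proteasome genes passed the filter. Of these, 29 were lower in log2 P/FM by 0.8 or more, beside 47.0% of all mRNAs, with a median change of -2.21. The 29 became 17 with processed signals (33.3% of all mRNAs), 18 after loess (27.2%) and 5 with spike-in scaling (0.638%). Psmb6 had the lowest change, from 2.49 in control to -1.40 in treated cells, and Psmd1 the highest, from 0.10 to 0.02. Vcp, which feeds the proteasome, was higher by 0.48 in the same fractions. The list of ER folding genes shares Sdf2l1 and Dnajb9 with the recognition list. Of its 15 genes above the filter, 13 were higher in A by 1 or more, beside 11.7% of all mRNAs, with a median change of 1.48. Hspa5, the main ER chaperone, had a change of 1.36 in log2 P/FM and of 1.96 in A, and Hsp90b1 was higher by 2.58 in A with log2 P/FM at 0.46 on both arrays. Creld2 was higher in A by 1.92 but lower in log2 P/FM, at 1.92 in control and -0.98 in treated cells.

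**Figure D5:**
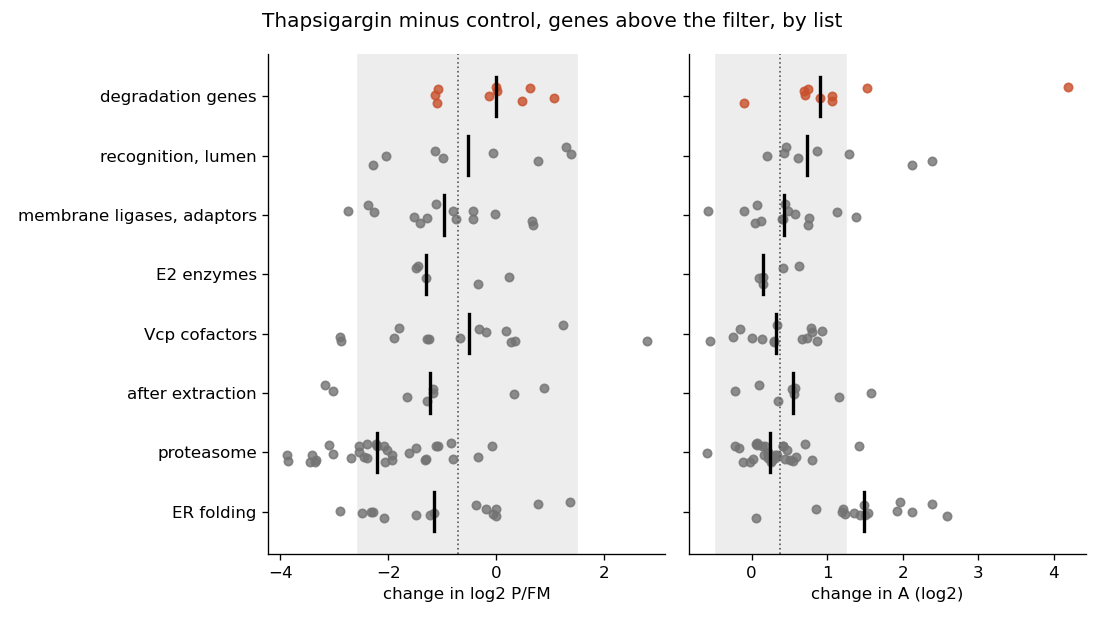
Change in log2 P/FM (left) and in A (right), thapsigargin minus control, of each gene above the filter in the 10-gene set (top row) and in 7 other lists; black bars are list medians. The dotted line is the median of all 10033 mRNAs and the grey band runs from their percentile 5 to 95; proteasome genes lie mostly at the left in log2 P/FM, ER folding genes mostly at the right in A, and Herpud1 is the point at 4.19.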

How the data were processed

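NIH3T3 cells, control or treated, were measured on 1 two-colour array per condition, with P in Cy3 and FM in Cy5, from 300 ng of RNA in total per the labels. The deposited intensity values per spot were extracted by the authors with Feature Extraction 10.7.1 (submitters' processing notes), without normalization. The deposited files also hold a log10 ratio after dye normalization, flags of other kinds per the file headers, and the authors' table of log2 ratios. That table has 11483 accessions, 8 members among them, and all 8 equalled the control values used here within 0.001.

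Each mean spot signal was reduced by its median local background, with a floor of 0.5, as the study names, and no normalization was applied. Outlier spots (295) were left out. Spots were averaged per probe and probes per coding accession. Each member probe was 1 spot, and the depth of an array is limited by its single hybridisation. Mean P signals were 635 in control and 463 in treated cells, and mean FM signals were 948 and 1397. Groups came from the labels. limma 3.58.1 (R 4.3.3) gave normexp, with an offset of 50 chosen here, and loess, and pandas 2.3.3 the rest. The steps were tested on simulated data. Alternatives covered background, scaling, filters and the unit. For the wider lists, the 3 highest and 3 lowest changes in log2 P/FM and the 3 highest in A were named, among genes with all signals well above background. A gene that this rule picks is not reported here. Current symbols (GRCm38.p6) matched 98.3% of accessions. The members and lists were chosen with earlier results of these data known. Proteins and exon annotation of probes were not analysed here.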

Additional observations from a re-analysis of the deposited data

How the results depend on the processing

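Of the 141 values recomputed for the counts and medians under alternatives, 93 stayed within 1.5 times the count or within 1 median SD between probes. These include the authors' log2 ratios and the setting with outlier spots kept. Under both, the value of each member present was the same, so they say little about stability. The median change in log2 P/FM of the members was 0.59 after centring on array medians, 0.88 after loess, 0.87 with processed signals or the Feature Extraction log ratio and 2.54 with spike-in scaling, in which the 10 spike-in probes differed by a median of -2.44 between arrays. Relative to all mRNAs the median was 1.18 with processed signals, 1.15 with the Feature Extraction log ratio, 1.03 after loess, 1.03 with A above 7, 0.020 without background subtraction and -0.045 with normexp. The number of sensitive members was 1 with processed signals (33.3% of all mRNAs), the Feature Extraction log ratio (32.6%), loess (27.2%) or no background subtraction (20.4%). It was 0 with normexp (13.4%), centring (28.3%) or spike-in scaling (0.638%), while 8 of 18 probes, of 5 members, were sensitive (45.2% of all probes). The number higher by 1 was 0 with A above 7, median spot signals or no background subtraction. It was 2 with the brightest probe or with spots well above background (also 2 of 18 probes, beside 12.6% of all probes). It was 3 with processed signals, the log ratio or centring, 4 after loess and 9 with spike-in scaling. The matching shares of all mRNAs were not counted, so these numbers show nothing particular to the members. With spike-in scaling the median change of all mRNAs was itself 1.84.

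The median change in A was 0.53 relative to all mRNAs, 1.20 scaled to spike-ins, 0.68 without background subtraction, 0.62 with processed signals and -0.00053 with normexp. All mRNAs had a median of -1.48 in A with normexp. The number of members higher by 1 in A was 2 relative to all mRNAs (3.39% of them) or with processed signals (4.84%), and 1 with normexp (0.678%). It was 6 scaled to spike-ins (25.6%). By probe, 8 of 18, of 7 members, were higher, but the share over all probes was not counted, so this is no result about the members. Shares of all mRNAs are given in brackets for the other lists. Of 51 wider genes on the array, 15 were sensitive with A above 7 (59.9%) and 14 with normexp (13.4%). They numbered 16 with centred arrays (28.3%) and 0 with spike-ins as the scale (0.638%). Of 31 proteasome genes, 17 were sensitive with processed signals (33.3%) or the log ratio (32.6%). They numbered 18 after loess (27.2%) and 5 with spike-in scaling (0.638%). Of 16 ER folding genes on the array, 8 were higher by 1 in A with normexp (0.678%). Spike-in scaling turned the changes in log2 P/FM of Derl1 (1.42), Os9 (1.47) and Edem2 (1.44), and normexp that of Edem2 (0.16). Derl2 changed from -0.13 to 0.87 with processed signals, 0.88 after loess and 0.47 after centring. With normexp the changes in A were -0.57 in Sel1l, -0.75 in Edem1 and -0.25 in Os9. The causes were not tested. With normexp or no background subtraction, all 18743 accessions passed the filter on A, faint ones included, so the filter selected nothing there. The normexp values hold for an offset of 50 added to each signal, and other offsets were not tried. No paired analysis was possible because each group has 1 array. Edem2, Sel1l and Edem1 were faint, the SD between probes was largest in Derl2 (1.53) and Edem1 (1.52), and pooled RNA shows no spread between preparations.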
